A study of Trachinotus blochii with 12 samples.

Results

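In the golden pompano, Trachinotus blochii, which is farmed as a marine food fish, 104 of 18490 gene models stood apart between hypoxia-tolerant (Tol) and hypoxia-intolerant (Intol) fish in the same direction in liver and in brain. Of these, 29 were higher in Tol in both tissues and 75 were lower in Tol in both. They were chosen by their measured values. The change, which is the mean log2(value + 1) in Tol minus that in Intol, had to be at least 0.5 in size in liver and at least 0.25 in brain with the same sign. In each tissue the 3 Tol values had to lie all above or all below the 3 Intol values. At least 3 libraries of each tissue had to reach a value of 1, together with a mean below 400 in liver and below 200 in brain. These level limits left 8215 gene models.

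The series holds 12 RNA-seq libraries, with 3 of Tol and 3 of Intol fish for liver and the same for brain, from 2-month-old fish. The labels give 3 tanks of 80 fish, with 14 fish taken per tank and 42 per status, and oxygen lowered over 2 h. All fish were fasted in water held at 0.9 mg/L oxygen, give or take 0.1 mg/L. Tol fish were still normal after 24 h of that hypoxia, and Intol fish were dying, with loss of balance, within 1 h. Status therefore cannot be told apart from the 23 h between the samplings, from fasting time or from the state of dying. No library from fish at normal oxygen was analysed here, so higher and lower compare Tol with Intol fish only. The labels do not say whether a library came from 1 fish or a pool, nor whether a liver and a brain library came from the same fish, so all p-values measure only the spread between these libraries.

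Values are those deposited, whose unit is not named, and they were read as FPKM, a fragment count divided by the length of the gene and the size of the library. They summed to between 360680 and 622240 per library, and these sums are not read counts, so the depth is unknown. Within each group, the correlation of log2 values between libraries was at least 0.981. Intol brain replicate 3 stood somewhat apart, at 0.987 and 0.982 with the other Intol brains, against 0.993 to 0.994 for the other pairs within brain groups. Intol liver replicate 3 was at 0.983 and 0.981 with the other Intol livers, against 0.991 between those. The gene models carry no gene names in the files and no annotation was used here. No function is therefore given for any of them, the liver and brain labels could not be checked against marker genes, and pathway lists were not counted. In bulk tissue, fewer cells of a type and less RNA per cell cannot be told apart.

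As background, vertebrate cells answer low oxygen partly through hypoxia-inducible transcription factors, which are stabilised when oxygen falls and raise transcripts for glycolysis, glucose uptake and oxygen delivery. These factors act in most cell types, while liver also handles glucose and lipid for the whole body and brain depends on a steady supply of oxygen and glucose.

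The shared changes were larger in liver than in brain for nearly all of these gene models. Among the 29 higher in Tol, the liver change ranged from 0.51 to 1.63 with a median of 0.70, and the brain change from 0.25 to 1.10 with a median of 0.34. Among the 75 lower in Tol, the liver change ranged from -3.23 to -0.53 with a median of -0.996, and the brain change from -1.38 to -0.25 with a median of -0.38. All 29 higher gene models and 71 of the 75 lower ones had the larger change in liver. The liver limit of the rule is itself larger than the brain limit, so this order is partly set by the choice and was not tested. The ratio of liver to brain change had a median of 1.99 for the higher and 2.69 for the lower gene models. Over the members, the sizes in both tissues were only loosely related, with r = 0.39 and rho = 0.27 over the 29 higher and r = 0.093 and rho = 0.14 over the 75 lower gene models. Within a tissue all of them share the same 6 libraries and their scaling, and the limits of the rule cut off small changes.

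**Figure D1:**
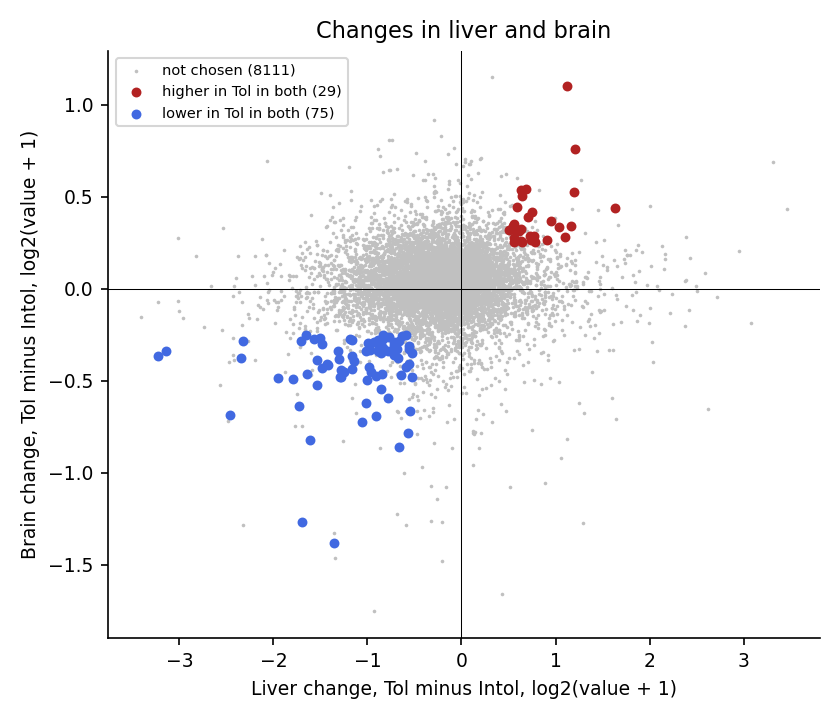
Change in liver (horizontal axis) against change in brain (vertical axis), each as Tol minus Intol in log2(value + 1), for the 8215 gene models passing the level limits, with the 29 higher in Tol in both tissues in red and the 75 lower in Tol in both in blue. The red points reach 1.63 in liver and 1.10 in brain, and the blue points reach -3.23 in liver and -1.38 in brain, while most grey points near the centre belong to gene models that did not meet the limits in either tissue.

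In folds of group means, the higher gene models were between 1.55-fold and 2.57-fold higher in Tol liver, with a median of 1.73-fold, and between 1.19-fold and 2.27-fold higher in Tol brain, with a median of 1.31-fold. The lower gene models were more spread in liver. Their Intol mean was between 1.46 and 14.6 times the Tol mean in liver, with a median of 2.53, and between 1.20 and 3.58 times in brain, with a median of 1.34. In 9 of the lower gene models, including the one at 14.6, only the Intol livers reached a value of 1 in liver. These passed the lower limit through the group in which they were high, and their liver folds rest on Tol values under 1. Among the other lower gene models the largest liver fold was 9.53, with a Tol mean of 16.4. A fold of at least 2 was reached in liver by 8 of the 29 higher and 53 of the 75 lower gene models, and in brain by 2 and 3. The gene models with a fold of at least 2 in both tissues numbered 2 among the higher and 3 among the lower.

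In the deposited values, liver values passing the level limits were lower in Tol on the median. Over the 8215 gene models passing the level limits, changes had a median of -0.20 in liver and of 0.04 in brain. Relative to that median, the higher gene models had a median liver change of 0.90 and the lower ones of -0.80. In brain the same values were 0.30 and -0.41. The limits of the rule were set on the values before this subtraction, so the rule also shapes these medians. Median-ratio scaling brought the median of these 8215 gene models to 0.03 in liver and -0.0018 in brain. That scaling evens out the typical level of the libraries, so a median near 0 comes largely by construction.

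The number of gene models with a shared direction is best read beside the counts for each tissue. Of the 8215 gene models, 498, or 6.06%, met the liver limits and non-overlap as higher in Tol, and 2122, or 25.8%, as lower in Tol. In brain, 392, or 4.77%, met the brain limits and non-overlap as higher in Tol, and 298, or 3.63%, as lower. The 29 shared higher gene models were 5.82% of the liver list and 7.40% of the brain list. The 75 shared lower ones were 3.53% of the liver list and 25.2% of the brain list. Among the gene models lower in Tol brain, the share also lower in Tol liver was thus close to the 25.8% found over all 8215, and among those higher in Tol brain the share also higher in Tol liver was close to the 6.06%. In the deposited values, a shared direction was therefore not shown to be more common than the liver counts alone give. The shares of each tissue under the other scalings are not given here. Gene models that met both tissues' limits with opposite signs numbered 115, of which 98 were lower in Tol in liver but higher in brain, and 17 the reverse. Those that met the liver limits alone numbered 2401, and those that met the brain limits alone 471.

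By limma, fitted over all genes of a tissue, 25 of the 29 higher and 71 of the 75 lower gene models passed in liver, where called means a Benjamini-Hochberg adjusted p under 0.05. Over the 9109 genes tested in liver, 7.49% were called higher and 29.6% lower in Tol. In brain, 0 of the 29 higher and 2 of the 75 lower gene models were called. Over the 14146 genes tested there, 1 (0.00707%) was called higher and 2 (0.0141%) lower in Tol, and those 2 were the ones among the 75. The 4 gene models named below were not called in brain, with adjusted p between 0.076 and 0.14 (limma). Without adjustment, 29 higher and 73 lower gene models had a limma p under 0.05 in brain, and 28 and 75 in liver. Over all genes tested, 2405 of 14146 in brain and 4349 of 9109 in liver had a limma p under 0.05. These counts use the contrast that chose the gene models, so they are in large part set by the choice and are not a test of the pattern. The brain side rested on small differences, and for all but 2 of the 104 it did not pass adjustment over the whole brain table. In brain, the median SD of log2 values within groups was 0.096 in Tol and 0.139 in Intol over the 104. Over all gene models passing the level limits, that SD was smaller, at 0.085 in Tol and 0.116 in Intol.

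Trachinotus_GLEAN_10003038 led the higher gene models by the smaller of its liver and brain changes. It had values of 11.71, 8.85 and 6.42 in Tol livers, against 4.51, 3.82 and 2.36 in Intol livers. In brain it had 26.00, 18.32 and 25.65 in Tol, against 8.90, 11.69 and 10.27 in Intol. The groups did not overlap in either tissue, and the gap was wider in brain, where the lowest Tol value was well above the highest Intol value. The means were 8.99 ± 2.65 in Tol and 3.56 ± 1.10 in Intol liver, and 23.3 ± 4.3 in Tol and 10.3 ± 1.4 in Intol brain (SD, n = 3 each). Its changes were 1.13 for liver and 1.10 for brain, which made it the only higher gene model with a change of at least 1 in both tissues.

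Trachinotus_GLEAN_10012654 was the other higher gene model taken by the naming rule, which ranked gene models with a mean of at least 5 in each tissue by the smaller of their 2 changes. Its values were 8.51, 8.07 and 8.43 in Tol livers, against 6.06, 4.08 and 4.48 in Intol livers. In brain they were 6.91, 7.71 and 6.08 in Tol, against 4.31, 5.08 and 3.90 in Intol. The Tol livers were almost level with each other, while Intol liver replicate 1 came closest to them. The means were 8.34 ± 0.23 in Tol and 4.87 ± 1.05 in Intol liver, and 6.90 ± 0.82 in Tol and 4.43 ± 0.60 in Intol brain (SD, n = 3 each), with changes of 0.68 in liver and 0.54 in brain.

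Among the lower gene models, Trachinotus_GLEAN_10001831 led by the same rule. It had 19.78, 13.80 and 17.14 in Tol livers, against 57.46, 76.67 and 33.81 in Intol livers. In brain it had 11.41, 7.83 and 11.67 in Tol, against 18.84, 14.94 and 23.13 in Intol. The Tol livers lay close together and the Intol livers were spread, with replicate 3 the nearest to Tol in liver and the farthest from it in brain. The means were 16.9 ± 3.0 in Tol and 56.0 ± 21.5 in Intol liver, and 10.3 ± 2.1 in Tol and 19.0 ± 4.1 in Intol brain (SD, n = 3 each), with changes of -1.61 in liver and -0.82 in brain.

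Trachinotus_GLEAN_10007533 combined a large liver difference with a moderate brain one. Its values were 7.70, 9.07 and 18.74 in Tol livers, against 33.29, 66.16 and 125.07 in Intol livers. In brain they were 30.42, 32.51 and 37.67 in Tol, against 58.31, 47.30 and 58.03 in Intol. The liver libraries varied widely inside each group, and the brain libraries far less. The means were 11.8 ± 6.0 in Tol and 74.8 ± 46.5 in Intol liver, and 33.5 ± 3.7 in Tol and 54.5 ± 6.3 in Intol brain (SD, n = 3 each), with changes of -2.46 in liver and -0.68 in brain.

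**Figure D2:**
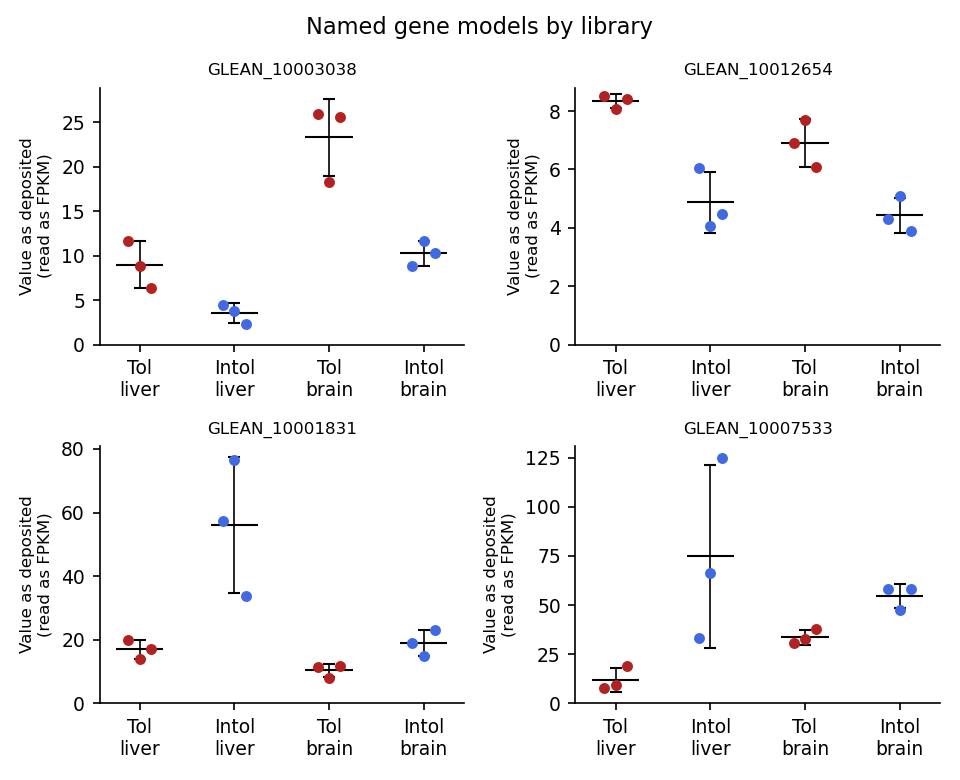
Deposited values (vertical axis, read as FPKM, starting at 0) of the 4 named gene models in the 12 libraries, with Tol libraries in red, Intol libraries in blue, and the mean with its SD over 3 libraries in black. The Tol points of the upper panels lie above the Intol points in both tissues, whereas those of the other panels lie under the Intol points, with the widest scatter in Intol liver for Trachinotus_GLEAN_10007533, from 33.29 to 125.07.

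The remaining gene models covered a broad span of patterns, and single ones are described here without their identifiers. The largest liver difference among the lower gene models was -3.23, with 9.42, 26.50 and 13.41 in Tol livers, against 96.68, 166.07 and 207.25 in Intol livers. Its brain difference was much smaller, at -0.36, with 4.88, 5.63 and 5.64 in Tol brains, against 6.49, 6.92 and 8.29 in Intol brains. The largest fold in liver, 14.6, belonged to a gene model that is far more abundant in brain. It had 0.44, 0.94 and 0.84 in Tol livers, against 1.98, 9.26 and 21.23 in Intol livers. The size of its fold thus rested on 2 of the Intol livers and on Tol values under 1. In brain it had 47.58, 40.50 and 46.95 in Tol, against 56.38, 52.21 and 68.08 in Intol.

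The largest liver change among the higher gene models, 1.63, leaned on a single library. That gene model had 92.70, 136.24 and 127.88 in Tol livers, against 74.22, 83.25 and 7.86 in Intol livers, where replicate 3 was far below the other Intol livers. Its brain values were 3.76, 3.61 and 4.15 in Tol, against 2.48, 2.59 and 2.64 in Intol, with little spread. The other higher gene model with a fold of at least 2 in both tissues, beside Trachinotus_GLEAN_10003038, had even groups. It had 80.20, 70.56 and 56.36 in Tol livers, against 33.21, 28.95 and 25.68 in Intol livers. In brain, where it was scarce, it had 3.27, 3.19 and 2.52 in Tol, against 1.08, 1.72 and 1.29 in Intol.

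The 4 gene models with a larger change in brain than in liver were all lower in Tol. The largest brain change of all, -1.38, was among them, with 4.85, 1.98 and 5.44 in Tol brains, against 13.07, 6.66 and 17.40 in Intol brains. In liver it had 0.64, 1.13 and 0.73 in Tol, against 3.39, 5.61 and 2.46 in Intol. In both brain groups replicate 2 was the lowest of its 3 libraries. The second largest brain change, -1.27, belonged to a gene model outside these 4, whose liver change was larger, at -1.70. Its brain change leaned on Intol brain replicate 3, at 28.29. The other Intol brains were at 6.44 and 5.97, against 4.11, 3.98 and 3.27 in Tol brains.

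On the log2 scale, the groups lay nearer to each other in brain than in liver, and the libraries within groups also spread less in brain. The gap, which is the distance on the log2 scale between the nearest values of the groups, had a median of 0.36 in liver and 0.14 in brain for the higher gene models. For the lower ones the medians were 0.58 in liver and 0.13 in brain, with a smallest brain gap of 0.0060. The pooled SD within the groups had a median of 0.226 in liver and 0.121 in brain for the higher gene models. For the lower ones it was 0.265 and 0.139. In liver, the gap was wider than the pooled SD within the groups for 20 of 29 higher and 59 of 75 lower gene models. In brain this held for 18 of 29 higher and 34 of 75 lower ones. Non-overlap was part of the rule, so these counts are in part set by the choice. The same counts are not given for other gene models, so they are not read as a result about the chosen ones. At the limits of the rule, the smallest brain change taken was 0.2516 for the higher gene models, beside 0.2470 for the nearest one left out, and -0.2505 for the lower gene models. The nearest lower gene model left out had a brain change of 0.2486 in size. For liver, the smallest sizes taken were 0.507 among the higher and 0.526 among the lower gene models, beside 0.461 and 0.493 for the nearest left out. The limit on the brain mean left out 2 gene models that met the rest of the rule, with the nearest at a mean of 208.2, and the limit on the liver mean left out 0.

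All 104 gene models were detected in all 12 libraries, with a lowest value of 0.10. In 9 of them, all lower in Tol, only the 3 Intol livers reached a value of 1 in liver. They passed the lower limit there only through the group in which they were high. A further 16 gene models failed only that limit. A mean under 5 in at least 1 tissue was found for 12 of the 29 higher and 38 of the 75 lower gene models. For these the log2(value + 1) scale understates the fold.

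**Figure D3:**
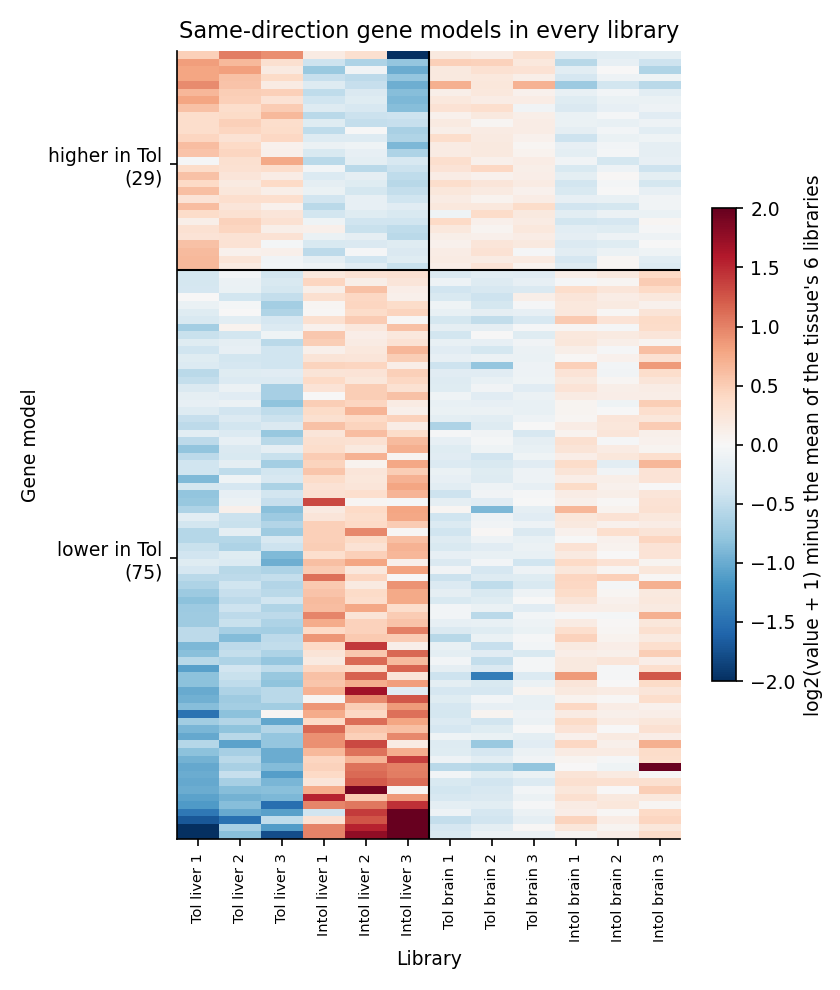
Values of the 104 gene models (rows, 29 higher in Tol above and 75 lower below, sorted by liver change) in the 12 libraries (columns), as log2(value + 1) minus the mean of the 6 libraries of the tissue, with colours ending at 2 in either direction. The liver columns are more strongly coloured than the brain columns, Intol liver replicate 3 is the bluest Intol column for several higher gene models, and a single dark cell marks the gene model at 28.29 in Intol brain replicate 3.

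Summed over the gene models, the groups stood apart in every library, as the rule fixes. The 29 higher gene models summed to 589 ± 22 in Tol and 304 ± 71 in Intol liver, and to 529 ± 12 in Tol and 398 ± 26 in Intol brain (SD, n = 3 each). The 75 lower gene models summed to 944 ± 147 in Tol and 2147 ± 312 in Intol liver, and to 1428 ± 53 in Tol and 1949 ± 105 in Intol brain (SD, n = 3 each). Tol brains were the most even groups for both sums.

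Some libraries moved with these gene models more than others inside their group. Over the higher gene models, Intol liver replicate 3 lay 0.24 below its group, at a mean deviation of -0.24 on the log2(value + 1) scale, while it deviated by 0.01 over all 8215 gene models. Over the lower gene models, Intol brain replicate 2 had a mean deviation of -0.12 and Intol brain replicate 3 of 0.11, beside -0.02 and 0.05 over all 8215. Intol brain replicate 2 was thus on average the Intol brain nearest to Tol for the lower gene models, and for the higher ones too, with a mean deviation of 0.07. Without it, 101 higher and 160 lower gene models met the rule. Without Intol brain replicate 3, 54 higher and 87 lower met it, including 25 of the 29 and 62 of the 75. Without Tol brain replicate 3, 59 higher and 126 lower met it. Without Intol liver replicate 3, 25 higher and 99 lower met it, including 25 of the 29 and 63 of the 75. Leaving out a library makes non-overlap easier to reach, so a rise in these counts comes in part by construction, and the part of any 1 library in the pattern was not tested further.

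Liver was compared with brain by limma over all 12 libraries, as the mean of the liver groups minus the mean of the brain groups. The rule did not use this contrast. Its limits on level, and on change in log2(value + 1), still depend on the level in each tissue, so the comparison is not independent of the choice. In the deposited values, 26 of the 104 were higher in liver than in brain and 65 were lower in liver, at an adjusted p under 0.05. Of the 8215 gene models passing the same level limits, 14.5% were higher and 78% lower in liver. The liver-minus-brain difference had a median of -0.70 over the 104 and of -1.25 over the 8215. Gene models meeting the liver limits alone lay between, with 19.0% higher and 71.2% lower in liver and a median of -0.995. Those meeting the brain limits alone also lay between, with 19.3% higher and 72.4% lower in liver and a median of -1.13.

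The split between the tissues depended on scaling, but the place of the 104 beside the 8215 did not. Both added scalings bring liver and brain libraries to a common level, so the turn of the split comes in part by construction. After median-ratio scaling of all 12 libraries, 73 of the 104 were higher and 19 lower in liver, beside 53.7% and 29.8% of the 8215, and the medians were 0.92 for the 104 and 0.32 for the 8215. After quantile normalization the same 2 counts were 73 and 19, beside 57.1% and 29.3%, with medians of 0.89 and 0.39. The 104 were thus placed further to the liver side than the 8215 under the 3 scalings, with no test of the list as a whole. Of the gene models meeting the liver limits alone, 62.6% were higher and 21.8% lower in liver after median-ratio scaling, with a median of 0.59. The 75 lower gene models had nearly the same shares, 64.0% and 22.7%, with a median of 0.91. The 29 higher ones had 86.2% and 6.9%, with a median of 1.06. After quantile normalization the shares were 62.7% and 23.7%, 64.0% and 21.3%, and 86.2% and 10.3%, in the same order. The 3 scalings rest on the same values, so they are not independent of each other. The rule asks for a larger change in liver, and the pseudocount shrinks changes at low liver values. Whether the choice itself places the 104 further to the liver side was not tested. The median of the mean liver value was 6.78 for the 104 and 3.92 for the 8215, and that of the mean brain value was 10.2 and 11.1.

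Among the named gene models, the tissue difference also moved with scaling. Trachinotus_GLEAN_10003038 was lower in liver than in brain in the deposited values, with a difference of -1.32 ± 0.16 (SE) and an adjusted p of 6.3e-06 (limma), but median-ratio scaling turned it to 0.39 ± 0.17 with an adjusted p of 0.045, and quantile normalization to 0.27 ± 0.14 with an adjusted p of 0.087. Trachinotus_GLEAN_10001831 was higher in liver under all 3 scalings. Its difference was 1.06 ± 0.19 (SE) as deposited, with an adjusted p of 0.00021 (limma), 2.85 after median-ratio scaling and 2.19 after quantile normalization. Trachinotus_GLEAN_10012654 was at 0.18 ± 0.09 (SE) as deposited, with an adjusted p of 0.083 (limma), and was higher in liver after median-ratio scaling and after quantile normalization, at 1.79 under each. Trachinotus_GLEAN_10007533 was at -0.63 ± 0.29 (SE) as deposited, with an adjusted p of 0.054 (limma), at 1.21 after median-ratio scaling, and at 0.37 after quantile normalization, with an adjusted p of 0.14.

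**Figure D4:**
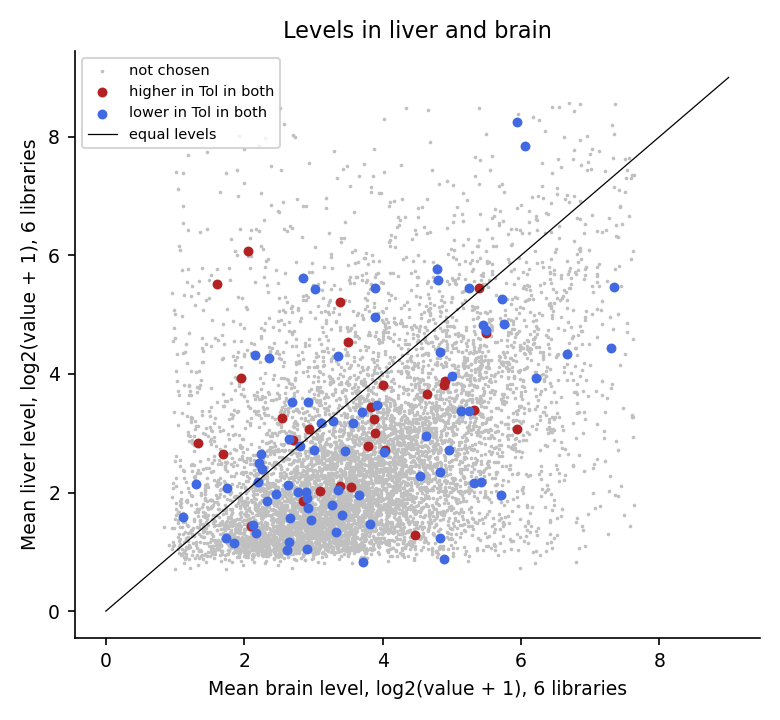
Mean level in brain (horizontal axis) and in liver (vertical axis) over 6 libraries each, as log2(value + 1) of the deposited values, for the 8215 gene models passing the level limits, with the 29 higher in Tol in both tissues in red and the 75 lower in blue. The coloured points spread over both sides of the line of equal levels, and 65 of the 104 were lower in liver against 26 higher.

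The means in both tissues were within a factor of 2 of each other for 12 of the 29 higher and 30 of the 75 lower gene models, in the deposited values. At the extremes, a higher gene model had a liver-minus-brain difference of 4.02, and a lower one had -4.01. That lower gene model had 0.35, 0.43 and 0.74 in Tol livers, against 1.68, 1.02 and 1.12 in Intol livers. In brain it had 21.85, 28.26 and 23.85 in Tol, against 33.02, 32.59 and 34.03 in Intol. A shared direction therefore included gene models with values close to 0 in a tissue.

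Only 2 pairs of the 104 gene models carried consecutive numbers, and in each pair both members had the same direction. Whether consecutive numbers mean neighbouring positions is not given in the sources used here, and reads shared between near-identical models could not be checked. In the pair higher in Tol, the first model had 12.92, 10.20 and 8.81 in Tol livers, against 5.10, 5.79 and 3.31 in Intol livers. The second had 20.33, 15.41 and 14.20 in Tol livers, against 11.79, 9.99 and 9.05 in Intol livers. Their brain changes were 0.34 and 0.32. The order of the liver libraries was nearly the same in both models of that pair. In the pair lower in Tol, the liver changes were -0.53 and -1.14 and the brain changes -0.35 and -0.39.

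How many gene models met the rule depended on how libraries were scaled. Under median-ratio scaling within each tissue, 39 higher and 78 lower gene models met it, of which 17 and 54 were among the 29 and 75. Under quantile normalization, 47 higher and 71 lower met it, of which 22 and 54 were among them. A core of 17 higher and 52 lower gene models met the rule under all 3 scalings, and the 4 named ones were kept. Under median-ratio scaling, 10 of the 12 higher gene models that dropped out had a brain change below 0.25, and 15 of the 21 lower ones had a liver change below 0.5 in size.

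**Figure D5:**
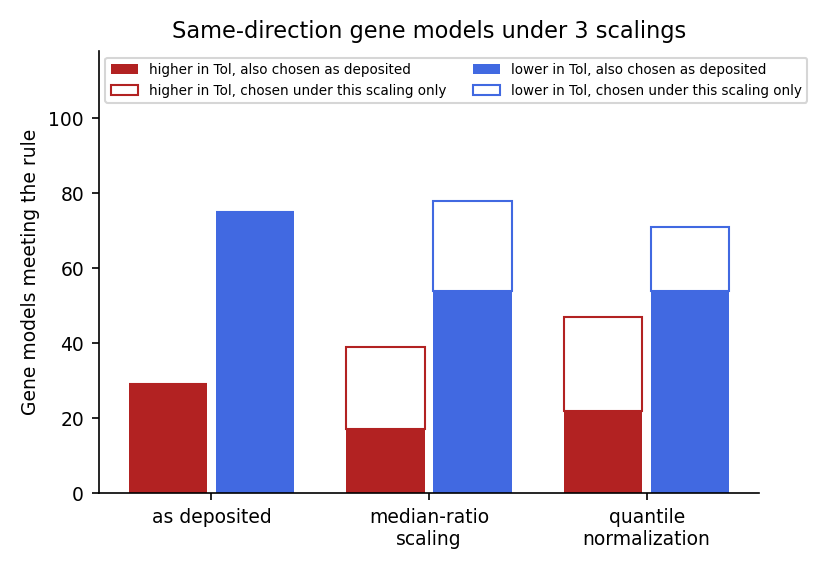
Number of gene models meeting the rule (vertical axis, from 0) in the deposited values, after median-ratio scaling and after quantile normalization within each tissue, with those higher in Tol in red and those lower in blue. Filled parts are gene models also chosen in the deposited values, which number 17 and 54 after median-ratio scaling and 22 and 54 after quantile normalization, and open parts were chosen under that scaling only.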

How the data were processed

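The 12 deposited files cover 18490 gene models with a single value each, written with 2 decimals. Per the labels' protocols, RNA was made into Illumina libraries, reads were cleaned and then assembled with Trinity. Not given in the sources used here are the aligner, counting tool, build and normalization. The deposited values were read as FPKM, because they are not whole and their sums differ between libraries. The file of Intol brain replicate 2 also held a block equal in all 18490 values to Intol brain replicate 1, which was not used.

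Values were taken as log2(value + 1). Each tissue, and liver against brain with 4 group means, was fitted with limma 3.58.1 in R 4.3.3 (variance trend, robust moderation) over genes reaching a value of 1 in 3 or more libraries fitted, which were 9109, 14146 and 14817 genes. Benjamini-Hochberg adjusted p under 0.05 was a call. The limma fits were tested on simulated data, with planted changes larger than most brain changes of the members. Python 3.11.15, NumPy 2.4.6, pandas 2.3.3 and matplotlib 3.10.9 were used.

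The members, the rule and the tests were chosen with earlier results of these data known. At most 2 gene models per direction are named, by the smaller of the absolute changes among members with a mean of at least 5 in each tissue. Alternatives were median-ratio scaling, quantile normalization, pseudocounts of 0.1 and 5, dropping the filter or asking for a mean of at least 5, plain limma, a replicate block, other limits of the rule, all 12 libraries in one fit, and each library left out.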

Additional observations from a re-analysis of the deposited data

How the results depend on the processing

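Against 29 higher and 75 lower gene models, a pseudocount of 0.1 gave 46 and 102, a pseudocount of 5 gave 7 and 30, and a mean of at least 5 gave 17 and 37. Quantile normalization gave 47 higher. Limits of 1 in liver and 0.5 in brain gave 3 and 8, and 0.5 in both gave 6 and 14. With each library left out the counts ranged from 24 to 101 higher and from 63 to 160 lower. The median liver change of the higher gene models, 0.70 in the deposited values, was 0.96 after median-ratio scaling and 0.94 after quantile normalization. That of the lower ones, -0.996, was -1.28 with a pseudocount of 0.1 and -0.59 with 5.

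Of the 104, 96 were called in liver (limma), and 72 to 88 with a library left out. Over all genes tested in liver with no library left out, 7.49% were called higher and 29.6% lower in Tol. The share of all genes called is not given for the other settings. The counts called in liver and brain are therefore not read as a result about the 104. Asking for a mean of at least 5 in a tissue took members below it out of that tissue's fit, and 57 were then called in liver. In brain, 2 were called (limma), 4 with a mean of at least 5 and 0 without variance trend and robust moderation. With a library left out the brain calls ranged from 0 to 6, with 0 without Tol brain replicates 1 or 2 or Intol brain replicates 1 or 3. In these 5 settings with 0 calls, between 79 and 100 of the 104 had an unadjusted p under 0.05 (limma), as did 9.25% to 20.5% of all genes tested, and the 104 were chosen on this contrast. With the replicate number as a block, 5 were called in brain and 99 in liver. Of 12 same-numbered pairs of libraries, 6 had deviations correlated above 0.1, with a range of -0.084 to 0.24. The condition set for pairing, every such pair above 0.1, was therefore not met. Between Tol and Intol libraries of a tissue, pairs with different numbers ranged more widely. They reached -0.36 for Tol liver replicate 1 with Intol liver replicate 3, and 0.34 for Tol liver replicate 1 with Intol liver replicate 2. Between liver and brain libraries of the same status, same-numbered pairs ran from -0.010 to 0.16. Pairs with different numbers ran lower there, from -0.14 to 0.073, and whether liver and brain libraries are paired was not tested further. The labels do not say whether a number marks a shared tank or fish. Those higher and lower in liver than in brain were 26 and 65, and 73 and 19 under both median-ratio scaling and quantile normalization. Over the 8215 gene models the shares were 14.5% and 78% as deposited, and 53.7% and 29.8% under median-ratio scaling. Under quantile normalization they were 57.1% and 29.3%. With a mean of at least 5 in each tissue, the members higher and lower in liver were 13 and 30, but only 54 of the 104 entered that fit. The scalings bring the 12 libraries to a common level, so the turn under them comes in part by construction. The cause of the other moves was not tested. The depth is unknown, so no counting limit is given.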
